A study of Rattus norvegicus with 16 samples.

Results

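The small RNAs described here are those that aligned to rodent L1 elements, the family of LINE-1 retrotransposons that expanded in the rodent lineage. The members were chosen by name alone, as the repeat names that begin with Lx, L1_, L1Md or L1VL, and 32 of the 997 repeat names in the tables met this rule. No name began with L1Md. The 32 names were 20 that begin with Lx, 6 that begin with L1_Rat or L1_Rn, 3 L1_Mur names, 2 L1VL names and L1_Rod.

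The samples were germ cells (GCs) from the testes of male Sprague-Dawley rats in which GCs express eGFP, sorted by flow cytometry on eGFP. From weaning until 19 weeks of age the rats received a high fat diet (HFD), with 40% of calories from fat by the sample labels and a higher share by the study's text, or a control diet (CD) with 10%. Animals of both diets carried the eGFP transgene. Each diet gave 4 small RNA libraries, selected for a size range that holds piRNAs. The sorted population mixes the stages of spermatogenesis, and in such bulk samples fewer cells of a type and less RNA per cell cannot be told apart. Defining markers of GCs and of somatic testis cells could not be looked up, since 0 gene identifiers matched a symbol. The authors checked the purity of their sorted GCs by RT-qPCR, with genes of GCs, Sertoli cells and Leydig cells measured against whole testis.

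L1 elements copy themselves through an RNA intermediate and are a main target of genome defence in the male germ line. PIWI proteins loaded with piRNAs, small RNAs slightly longer than miRNAs, recognise transposon RNA by base pairing and cleave it or direct silencing of the locus. Many piRNAs of meiotic and later GCs, however, come from long precursor loci that lie between genes and hold old, truncated repeat copies.

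The authors counted reads on each repeat name on either strand, with a minimum mapping quality of 1, and describe them as uniquely aligned. How a read that fits several copies was handled cannot be read from the tables, and some piRNA entries with several listed places had high counts, as described for L1_Mur2. Repeat counts per library ranged from 2363595 to 3269169. All 32 names had, averaged across the 8 libraries, 1 count or more, the filter used for the tests. Over all libraries 1619723 counts fell on rodent L1 names, which was 7.31% of the 22165561 repeat counts. Rodent L1 copies made up 42.2% of the annotated repeat length (418.7 of 991.8 Mb), in 599499 copies over 21 chromosomes. Their share of the counts was thus far below their share of the length.

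A few names held most of the counts. Lx9 had 271296 counts and Lx5c 256759, together 32.6% of the rodent L1 total. L1_Mur2 followed with 151218, Lx8 with 124984 and L1_Rat4 with 118795, and the first 5 names held 57.0%. With L1_Rn2 (90412), L1_Rat3 (70600), Lx4B (53225), Lx7 (50377) and L1_Rat2 (49385), the first 10 names held 76.4%. At the other end Lx2A had 83 counts over the 8 libraries.

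Levels per length, which correct for how much of each element the genome holds, spanned 473-fold between the highest and the lowest name. Lx5c was highest with 32.3 counts per kb over the 8 libraries summed. Lx4B had 16.7, Lx9 16.3, Lx10 14.8 and L1_Mur2 12.8 counts per kb. In the middle of the order, Lx8 had 7.34, Lx6 5.30, L1_Rat4 3.29, Lx7 3.13, L1_Rn2 2.93, L1_Rat2 2.88, L1VL4a 2.14 and L1_Rat3 1.90. The lowest 5 were L1_Rn with 0.282 counts per kb, L1VL4 with 0.198, Lx3C with 0.175, Lx2B with 0.124 and Lx2A with 0.0683. L1_Rn and L1_Rat1, a name taken up here after its values were seen (0.335 counts per kb), are those with the most full-length-sized copies, and both stood in the lowest 6.

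**Figure D1:**
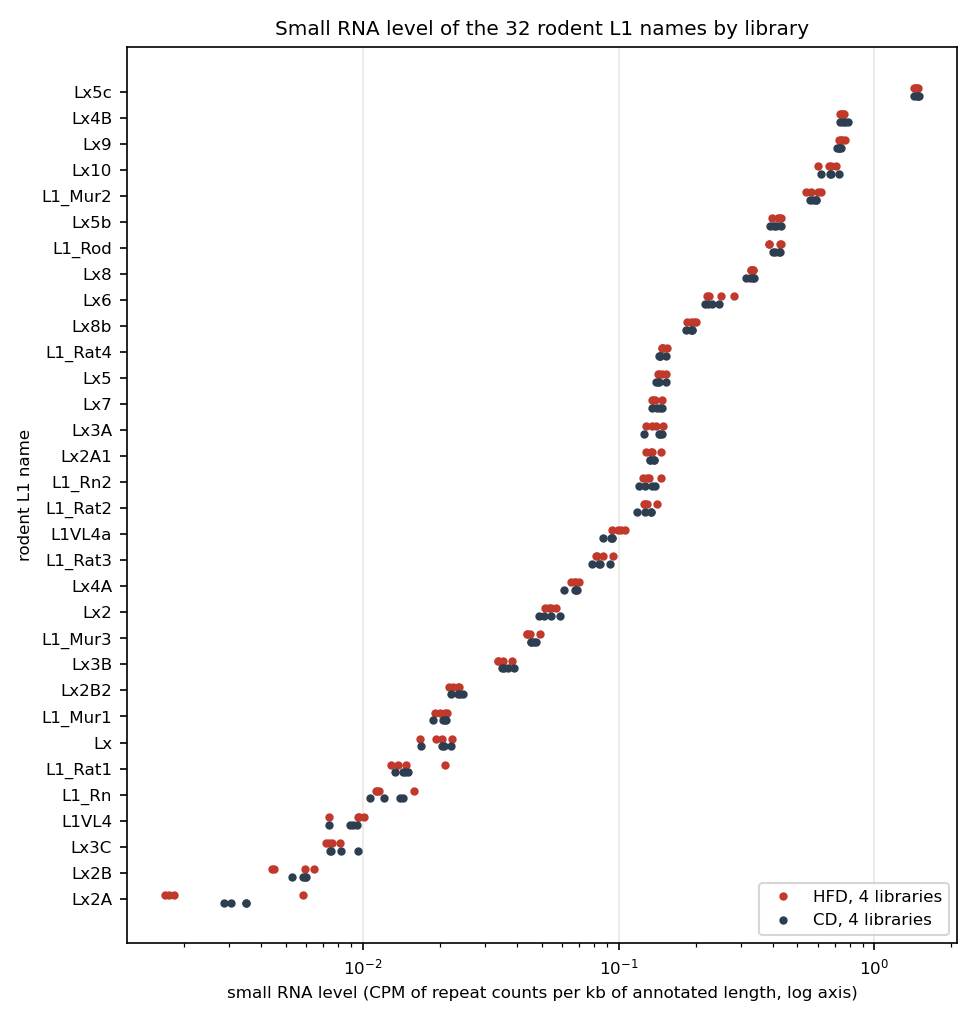
Each point is 1 library (HFD red, CD dark), the x axis gives CPM (normalised counts relative to the library's repeat total) per kb of annotated length on a log axis, and the 32 names are ordered by counts per kb. The names span 473-fold while the libraries of most names lie close together, with the widest spread at Lx2A, where HFD replicate 3 stands to the right of the other libraries.

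The order was nearly the same in each library. The lowest Spearman rho between the CPM per kb of any pair of libraries was 0.988 over the 32 names, and 16 names held the same rank in all 8 libraries. Lx5c stood alone at the top, with 1.42 to 1.50 CPM per kb. Lx4B (0.731 to 0.786) and Lx9 (0.713 to 0.766) overlapped each other, so their order was not separated by the spread between libraries. Of the 31 neighbouring pairs of names in the order, 17 overlapped in their library ranges. One stretch of 7 names from L1_Rat4 (0.144 to 0.155 CPM per kb) down to L1_Rat2 (0.118 to 0.142) overlapped from each neighbour to the next.

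The groups formed by the start of the name differed in density. The 20 Lx names made up 43.8% of the rodent L1 length and 64.8% of its counts, with 5.72 counts per kb as a whole and a range over names of 0.0683 to 32.3. The 6 L1_Rat and L1_Rn names made up 45.5% of the length and 21.6% of the counts, with 1.84 counts per kb. The single L1_Rod name had 9.13 counts per kb, the 3 L1_Mur names 5.48 and the 2 L1VL names 1.32. The wide range within Lx means that the start of a name alone does not give its level.

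The L1_Rat and L1_Rn names held 7936 of the 8616 copies of at least 5 kb, a length near that of a complete element. L1_Rat1 had 13.03% of its copies at or above that length and L1_Rn 9.70%, against a median of 0.154% over the 32 names. Median copy length ran from 199 bases in Lx10 to 821 in L1_Rat1. Across the 32 names, which are not independent replicates, counts per kb were lower where the median copy was longer (Spearman rho -0.61) and where more copies were long (rho -0.48). The relation to the share of bases on the X chromosome was weaker (rho -0.21). These are descriptions of the names, and how much of the difference in level comes from reads of young, nearly identical copies that cannot be placed was not tested.

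Counts per kb were also set against ancient LINE names, the older L1, L2, L3 and related elements shared among mammals (108 names, 70.4 Mb). Summed over names, rodent L1 had 3.87 counts per kb and ancient LINEs 45.1, against 22.3 for all repeats. Within each library the ancient LINE value was between 11.2 and 12.1 times the rodent L1 value (mean log2 ratio of rodent over ancient -3.54 ± 0.038, SD, n = 8; two-sided exact sign-flip permutation test, p = 0.0078, the smallest that 8 libraries allow). The sums rest on few ancient names, since the first 5 of them held 68.6% of the ancient LINE counts and L2c alone had 562 counts per kb. With the median over names in place of the sums the direction turned: the median rodent L1 name had 2.91 counts per kb and the median ancient LINE name 0.761 (log2 ratio 1.86, p = 0.0078 by the same exact test). This p is reached whenever all 8 libraries share a direction, so it does not choose between sums and medians. Of the 108 ancient names, 34 had more counts per kb than rodent L1 as a whole.

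Part of the rodent L1 signal lay on annotated piRNAs. The authors also counted reads on 58165 piRNA entries placed in the rn5 genome, in 1 orientation only, and 907 of these entries lay wholly within rodent L1 copies at every place they map to. Of the 907, 314 had any count, 246230 counts in all. This was 2.95% of the 8359682 piRNA counts, with a range of 2.78% to 3.07% over the libraries. The median name had 2.56% of its repeat counts on such entries, and L1_Rat1, L1_Rat2, Lx2A, Lx2B, Lx2B2 and Lx3C had none.

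L1_Mur2 was the exception, with 91.3% of its counts on piRNA entries. One entry, rat_piRNA_149850, made up 122884 counts, 49.9% of all counts on entries within rodent L1 and 81.3% of the L1_Mur2 counts. It is 28 bases long and has 2 places, chr2:125104239-125104266 and chr2:125293736-125293763 in rn5, 189 kb apart, each within a minus-strand L1_Mur2 copy of 528 bases and outside every gene of the deposited gene table. A second entry in the same 2 copies, rat_piRNA_75000, had 13630 counts. The level of L1_Mur2 among the highest 5 names thus came mostly from a pair of copies out of 20701, and without the counts on entries it was 1.12 counts per kb in place of 12.8.

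The entry held a like share in each of the 8 libraries. On the HFD it had 13343, 13998, 16419 and 18190 counts in replicates 1 to 4, and on the CD 14069, 16303, 15994 and 14568. Relative to the piRNA counts of each library these were 13240 to 15700 CPM on the HFD and 14405 to 15151 CPM on the CD, so that the CD range lay within the HFD range. The entry held between 79.7% and 82.4% of the L1_Mur2 counts of each library.

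**Figure D2:**
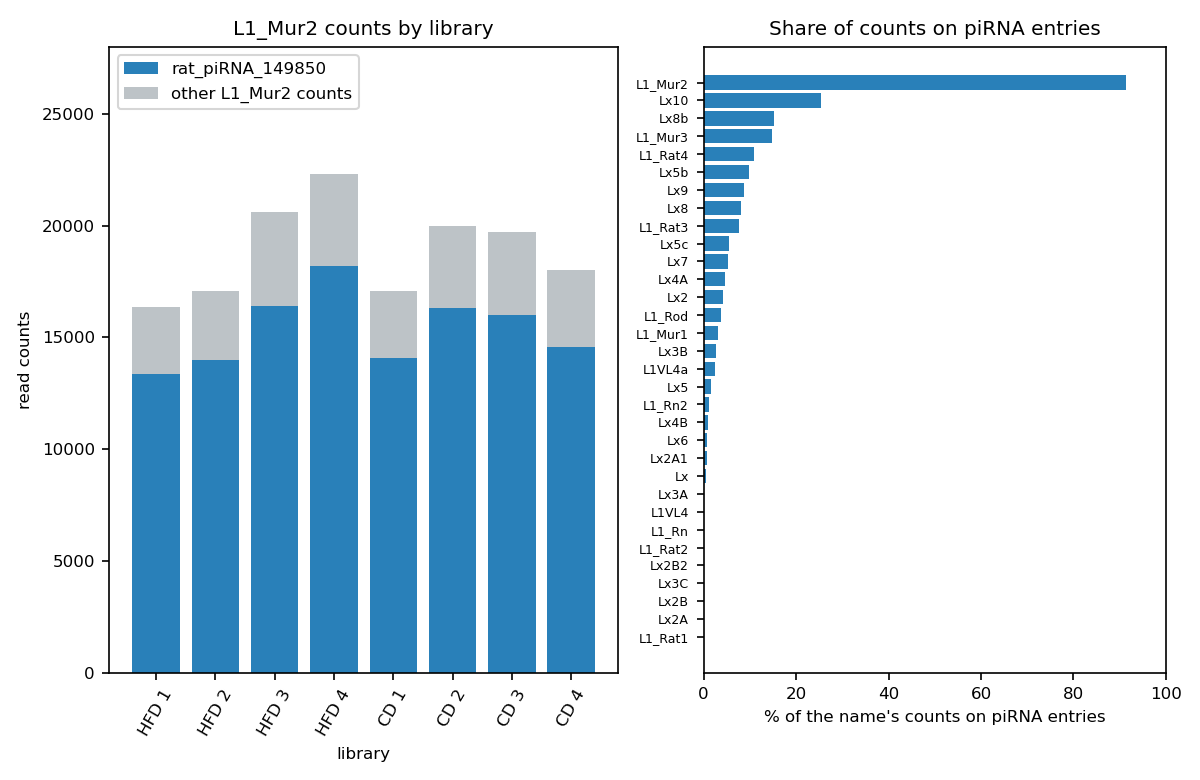
Left, bars give the read counts on L1_Mur2 in each library, split into rat_piRNA_149850 (blue) and the remaining counts (grey); right, bars give for each of the 32 names the percentage of its counts, 8 libraries summed, that lay on piRNA entries. The blue part is 79.7% to 82.4% of every bar on the left, and L1_Mur2 at 91.3% stands far above the next name, Lx10, at 25.4%.

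After L1_Mur2 the names with the largest share on entries were Lx10 (25.4%), Lx8b (15.3%), L1_Mur3 (14.8%) and L1_Rat4 (10.9%); Lx8b and L1_Mur3 are named after their values were seen. The most abundant entry with a single place was rat_piRNA_165819, 25 bases at chr7:100149687-100149711 in an Lx9 copy of the plus strand. It had 13757 counts, 5.07% of the Lx9 total, with 1445 to 1967 counts per library. Without the counts on entries Lx9 had 14.9 counts per kb and Lx5c 30.6, so these names kept their high level. The remainder can still hold reads of the other strand at these entries and reads on entries with places outside rodent L1.

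The single-place entries were gathered in few parts of the genome. Of the 246230 counts on entries within rodent L1, 86655 lay on entries with a single place. These came from 188 entries in 43 windows of 100 kb. The window chr7:100100001-100200000, which holds Lx8 and Lx9 copies, had 21.4% of the counts, with 1969 to 2688 per library. The first 5 windows had 54.7% and the first 10 had 81.3%. Entries outside genes held 97.5% of these counts and entries in introns 2.51%, and no counted entry overlapped an exon. Whether these windows are piRNA precursor loci was not tested.

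The orientation of the entries relative to the L1 copies depended on which entries were taken. All entries are listed on the plus strand and the authors counted reads of the opposite strand. Whether the list lost the true strand of its entries is not known, and reads of an entry that truly lies on the plus strand would not be counted, so the shares describe the counted reads and not all small RNAs of these places. Of the counts on single-place entries, 79.6% lay in plus-strand copies (79.2% to 80.03% by library), and 75.8% did so without the most abundant entry. The list of entries was itself uneven, since 508 of the 665 single-place entries (76.4%) lay in plus-strand copies, close to the share of the counts, while plus-strand copies made up 50.0% of rodent L1 bases. In ancient LINEs 66.5% of the entries and 46.3% of the counts lay in plus-strand copies (53.4% of the counts without the most abundant entry), and in all other repeats 57.6% of the entries and 63.2% of the counts (60.2% without it). When entries with several places were added, 63.6% of the counts lay in minus-strand copies, 32.2% in plus-strand copies and 4.23% had places in both, with the 2 abundant L1_Mur2 entries among those in minus-strand copies. Reads of the other orientation are not in the piRNA counts.

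The diet comparison asked whether the HFD changed small RNAs on rodent L1 in GCs. As a share of all repeat counts, rodent L1 made up 7.32%, 7.29%, 7.37% and 7.29% of the HFD libraries, given in order of replicate, and 7.16%, 7.15%, 7.39% and 7.50% of the CD libraries. The HFD libraries lay inside the range of the CD libraries. The HFD mean was 7.32% ± 0.036 and the CD mean 7.30% ± 0.169 (SD, with n = 4 for both), a difference of 0.0166 percentage points with a standard error of 0.0866. By a two-sided exact permutation test this gave p = 0.886, where 0.0286 is the smallest p possible for 4 against 4.

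The groups by name overlapped between diets as well. The Lx names made up 4.70% to 4.80% of repeat counts on the HFD and 4.67% to 4.84% on the CD. The L1_Rat and L1_Rn names made up 1.54% to 1.71% and 1.49% to 1.64%. The L1_Mur names made up 0.708% to 0.792% and 0.729% to 0.794%, and L1_Rod 0.167% to 0.186% and 0.176% to 0.187%. The L1VL names, at 0.0557% to 0.0620% on the HFD and 0.0513% to 0.0578% on the CD, overlapped least.

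**Figure D3:**
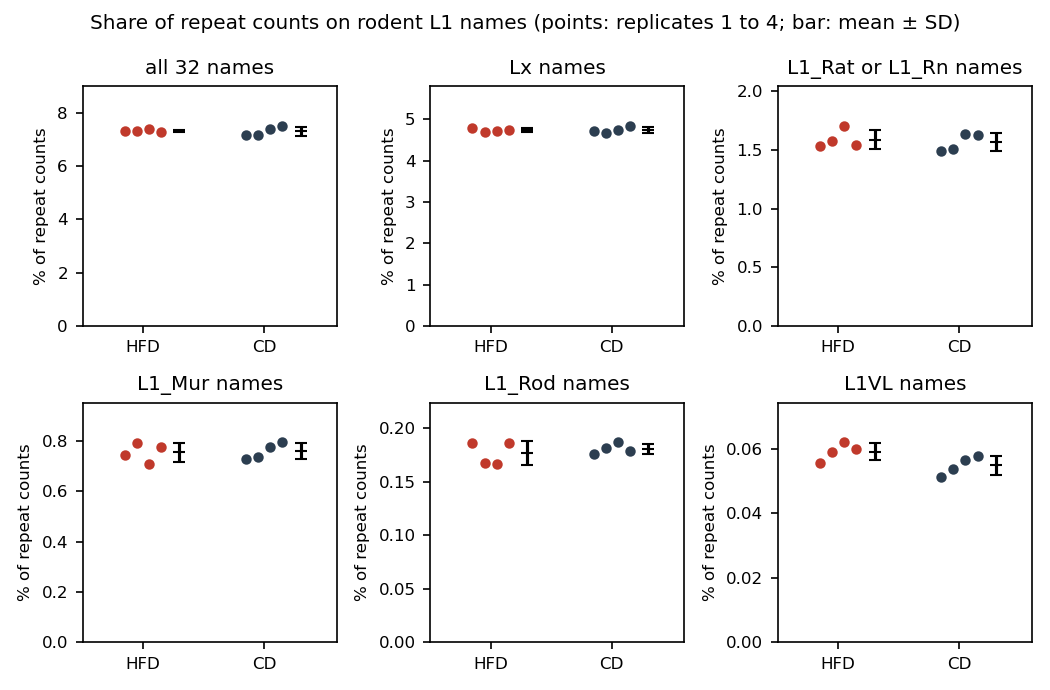
Points give the percentage of repeat counts on all 32 names and on each group of names in the 4 HFD (red) and 4 CD (dark) libraries, and the bars beside them the mean ± SD. The y axes start at 0 and differ between panels, and the diets overlap in every panel.

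For single names, differences between diets were tested with edgeR's quasi-likelihood test over the 755 repeat names that passed the filter. Of the 32 rodent L1 names, 0 had a Benjamini-Hochberg adjusted p under 0.05, where 0.132% of all names tested did. At an unadjusted p under 0.05 there was 1, L1VL4a, against 3.58% of all names (2.12% higher and 1.46% lower on the HFD), and 0 of the 32 had diets that did not overlap, against 2.25% of all names. DESeq2 also called 0 of the 32 names at the adjusted threshold and 1 at the unadjusted one. Over all repeat names DESeq2 called 0 at the adjusted threshold with shrunken fold changes and 1 without shrinkage. The authors, who tested repeat elements with DESeq2, reported none that differed between the diets. Of the log2 fold changes of HFD over CD, 17 were above 0 and 15 below, where 53% of all names were above 0, and their median was 0.0074 against 0.0053 over all names. These directions rested on single libraries: with 1 library left out, between 13 and 20 names were above 0, and the median was -0.0175 without HFD replicate 3, -0.0034 without CD replicate 1 and -0.0028 without CD replicate 2.

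The estimates were narrow for most names. The 95% interval of the log2 fold change lay within -0.2 to 0.2 for 22 names and within -0.5 to 0.5 for 31. The exception was Lx2A, with so few counts that its interval ran from -1.06 to 0.75. Among the most abundant names the log2 fold change was 0.04 (SE 0.028) for Lx9, -0.01 (SE 0.029) for Lx5c, 0.0040 (SE 0.044) for L1_Mur2, 0.02 (SE 0.031) for Lx8 and 0.03 (SE 0.033) for L1_Rat4.

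L1VL4a had the smallest p of the 32 names. In order of replicate, its CPM was 523, 552, 585 and 564 for the HFD libraries and 481, 515, 524 and 524 for the CD libraries. Only HFD replicate 1 lay within the CD range. The log2 fold change was 0.12 (SE 0.053), with an unadjusted p of 0.0414 and an adjusted p of 0.992 by edgeR. The next smallest p among names higher on the HFD were those of Lx9 and Lx6, with log2 fold changes of 0.04 and 0.09, and among names lower on the HFD those of Lx3C (-0.12), Lx4B (-0.03) and Lx2B (-0.10). For all of these the adjusted p was 0.992 by edgeR.

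**Figure D4:**
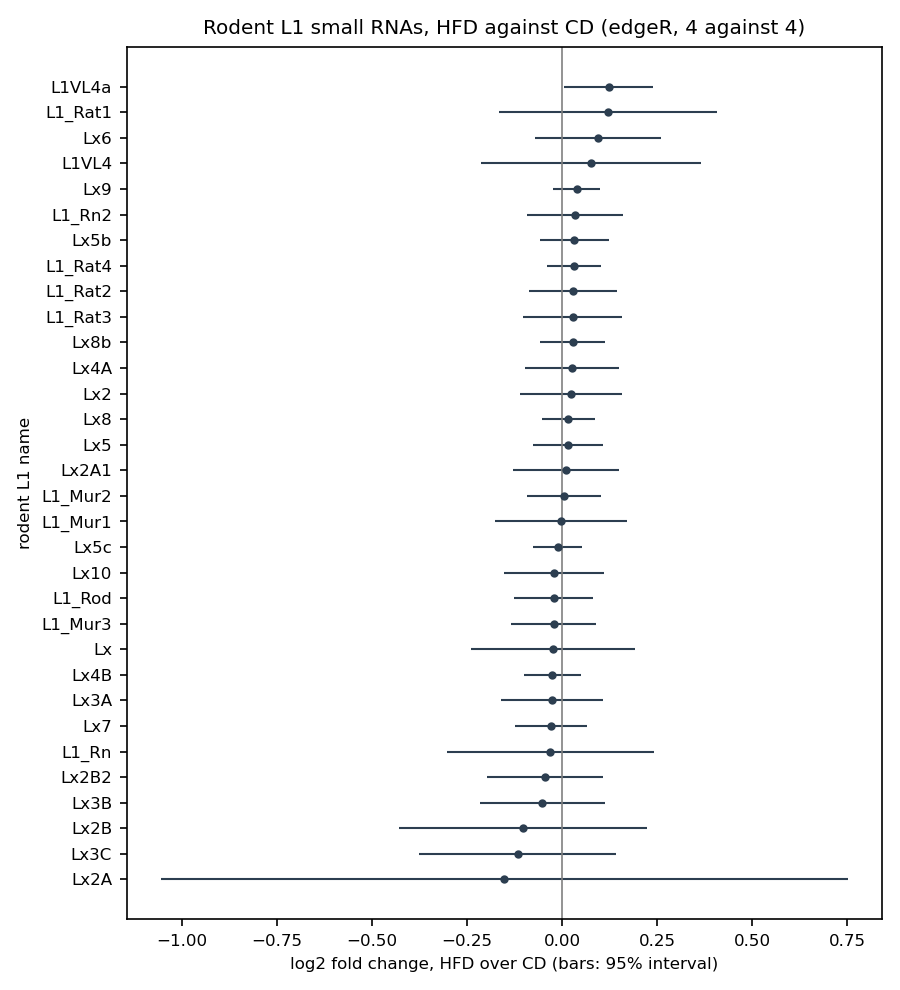
Points give the log2 fold change of HFD over CD for each of the 32 names from the edgeR fit and bars its 95% interval. The points lie between -0.15 (Lx2A) and 0.12 (L1VL4a), and the interval of L1VL4a is the only one of the 32 that does not cross 0.

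HFD replicate 3, the deepest library, stood apart for several names. In order of replicate, L1_Rat1 had 443, 475, 676 and 417 CPM for the HFD and 463, 431, 472 and 486 CPM for the CD, so that HFD replicate 3 was 1.49 times the mean of the other 7 libraries. L1_Rn had 422, 431, 589 and 422 CPM on the HFD and 399, 453, 535 and 520 on the CD. Lx2A had 7.08 CPM in HFD replicate 3 and 2.04 to 4.25 in the other libraries.

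This library was the highest of all 8 for 10 of the 32 names, among them 5 of the 6 L1_Rat and L1_Rn names, and for 13.2% of all names tested. With it, 5 of the 6 L1_Rat and L1_Rn names had a log2 fold change above 0, and without it 1 did, L1_Rat4. L1_Rn moved from -0.03 to -0.17 without it, L1_Rat1 from 0.12 to -0.06 and Lx2A from -0.15 to -0.86. None of the 32 names had an adjusted p under 0.05 by edgeR with or without this library, and the part of its depth or of the sorted cells in these values was not tested. CD replicate 3 was in turn the highest CD library for L1_Rn (535 CPM), L1_Rn2 (4279), L1_Rat3 (3424) and L1_Rat2 (2302). For L1_Rat1 and L1_Rat4 the highest CD library was replicate 4. The next highest CD library was close for L1_Rn (520 CPM), L1_Rn2 (4168) and L1_Rat2 (2294), and further below for L1_Rat3 (3127). For L1_Rat1, CD replicate 3 had 472 CPM, within the range of the other CD libraries. Whether the libraries numbered 3 share a trait was not tested.

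**Figure D5:**
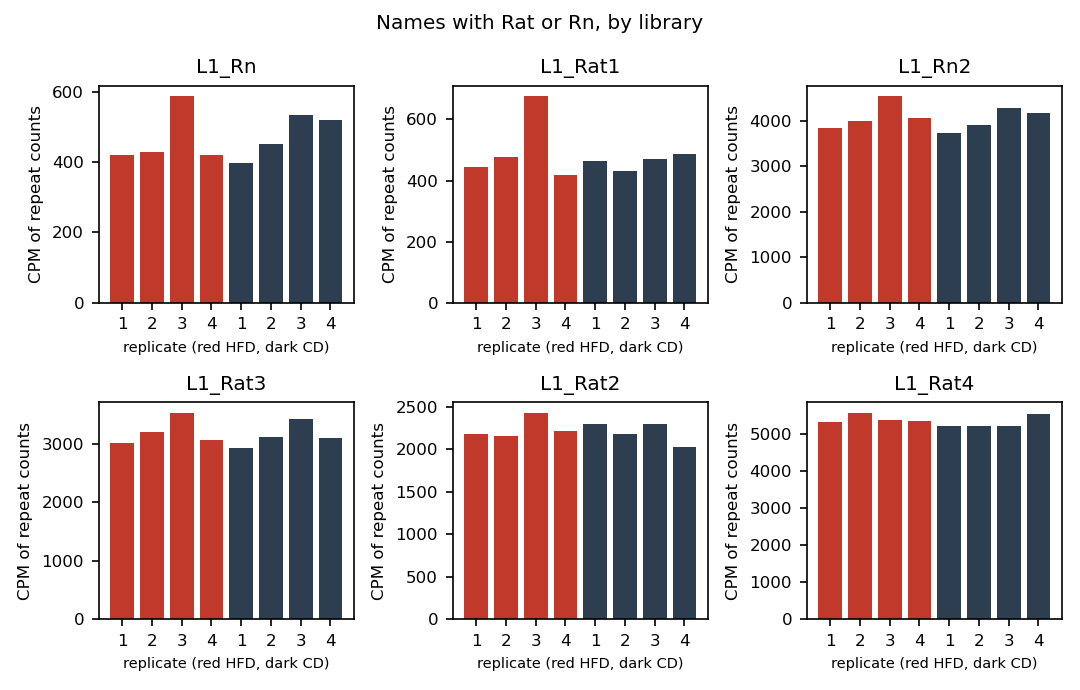
Bars give CPM of repeat counts in each library (HFD red, CD dark, replicates 1 to 4) for the 6 names that begin with L1_Rat or L1_Rn, with every y axis starting at 0. HFD replicate 3 is the highest bar for 5 of the 6 names, by the most for L1_Rat1 (676 CPM against 417 to 486), and L1_Rat4 does not show this. Among the CD bars, replicate 3 is the highest for L1_Rn, L1_Rn2, L1_Rat3 and L1_Rat2.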

How the data were processed

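Small RNA was sequenced from 8 libraries of sorted GCs, 4 per diet, grouped by the sample labels. The authors aligned reads to rn5 and deposited raw counts per feature, made per the file headers with featureCounts 1.4.6, at a mapping quality of at least 1, on either strand for repeats and on the reverse strand for piRNAs. The column header of CD replicate 4 names a different library number from that of the file itself, which was assigned by its record.

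The members and lists were chosen with earlier results of these data known. Counts per kb used the annotated length of each name. Repeat names with a mean count of at least 1 were compared between diets by edgeR 4.0.16 under R 4.3.3 (TMM, quasi-likelihood test, Benjamini-Hochberg adjustment over 755 names), and CPM are TMM normalised. Standard errors came from each fold change and its F statistic (the log2 value over the root of F). Shares were compared by exact permutation tests over the 70 labellings. The script was tested on simulated data. DESeq2 1.42.0, other size factors, filters, denominators, the replicate block and leaving out each library were alternatives, and the versions of the share without L1_Mur2 and of the density without L2c were added after the data were seen. piRNA entries were intersected with repeat copies with bedtools 2.31.1, and only entries within copies over 100% of their length were kept.

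Names described singly were the 10 with the most counts, the 5 highest and 5 lowest per kb, and the 3 smallest p in each direction. No pair of libraries agreed within sampling noise (lowest chi-square per degree of freedom 3.54). In the smallest library 3 counts were 0.000127% of repeat counts, and such floors cover counting error only. The study gives its read numbers per animal, but nothing says that the libraries of a diet came from separate litters. The p-values therefore set differences against the spread between these libraries and not between litters. The planned tests of piRNA pathway genes and marker genes in the mRNA libraries were not run, since 0 gene identifiers matched a symbol. Sequences of L1 copies and of the piRNA entries were not used here.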

Additional observations from a re-analysis of the deposited data

Results flagged for a closer look

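In the groups of 4 libraries tested (58 groups), 3 had 1 library far from the other 3, where chance gives about 1 in 20. L1_Rn in HFD replicate 3 was at 589 CPM, against 422 to 431 in the other HFD libraries. Lx2A in HFD replicate 3 was at 7.08 CPM, against 2.04 to 2.22 in the other HFD libraries, a value that rests on 23 counts. L1_Rat4 in CD replicate 4 was at 5556 CPM, against 5217 to 5240 in the other CD libraries. Over all 755 names tested, HFD replicate 3 stood apart in the same way on the high side for 4 names, of which L1_Rn and Lx2A were 2. The other libraries did so for between 4 names (CD replicate 3) and 10 names (HFD replicate 1), so HFD replicate 3 was not unusual in this count. What sets these libraries apart was not tested.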

How the results depend on the processing

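No rodent L1 name had an adjusted p under 0.05 in any of the 17 alternatives, and between 0 and 1 had an unadjusted p under 0.05. The number of the 32 names above 0 was 15 with the library size alone (median -0.0038) and 15 with piRNA counts as the library size (median -0.0049). The p of L1VL4a ranged from 0.0206 to 0.116 unadjusted (edgeR or DESeq2), with adjusted values of at least 0.976. The difference in share became -0.0064 percentage points without Lx9 and ranged from -0.032 to 0.082 when 1 library was left out (exact permutation p from 0.286 to 1). The density ratio to ancient LINEs became 1.86 on the log2 scale with the median over names, was -3.15 without L2c, and ranged from -3.55 to -3.53 without 1 library. Of the 18 names, 9 kept their direction in every alternative. L1_Mur2 changed to -0.0072 with the library size alone and to -0.0081 with piRNA counts as the library size. Leaving out 1 library gave log2 fold changes from -0.026 to 0.039 for L1_Mur2, from -0.060 to 0.022 for Lx10, from -0.0040 to 0.027 for Lx8, from -0.018 to 0.063 for L1_Rn2, from -0.012 to 0.049 for L1_Rat2, from -0.023 to 0.062 for L1_Rat3, from -0.17 to 0.019 for L1_Rn, from -0.0020 to 0.16 for L1VL4 and from -0.86 to 0.029 for Lx2A. Without HFD replicate 3 Lx2A had an unadjusted p of 0.0279 (edgeR) and an adjusted p of at least 0.988. The cause was not tested. Correlations of same-numbered HFD and CD libraries ran from -0.0088 to 0.165, and those of other HFD and CD pairs from -0.149 to 0.097. Over the rodent L1 names, CD replicate 1 was closest to HFD replicate 1 (chi-square per degree of freedom 3.54). Likewise CD replicate 2 was closest to HFD replicate 2 (5.94). HFD replicate 3 was closest to CD replicate 3 (11.9), but CD replicate 3 was itself closest to CD replicate 4 (8.66). HFD replicate 4 was closest to CD replicate 2 (9.41), and CD replicate 4 to HFD replicate 2 (6.20). Whether same-numbered libraries share a batch was not tested. The replicate block left the calls at 0 and the share difference at 0.0166 (exact sign-flip permutation p = 1). The denominator without simple repeats gave no value, since 0 names fell under its definition. Few counts (83 in all) limited Lx2A.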

Other observations

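Among the 522 repeat names of at least 100 kb, ordered by counts per kb, Lx5c ranked 102, Lx4B 150 and Lx9 153, and the lowest rodent L1 name, Lx2A, ranked 518. Annotated length did not order the rodent L1 names: across the 32 names, which are not independent, the Spearman rho of counts per kb with length was -0.0022, while that of total counts with length was 0.47.

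Across the same 32 names, the ratio of HFD replicate 3 to the mean of the other 7 libraries was higher where more copies were at least 5 kb long (rho 0.43) and lower where counts per kb were higher (rho -0.49). The sizes were 1.49 for L1_Rat1, 1.30 for L1_Rn, 2.24 for Lx2A and 0.918 for L1_Mur2. L1VL4a, the name with the smallest p between diets, also had the largest share of its bases on the X chromosome, 14.3% against a median of 9.20%. These relations were noticed in the data and carry no test.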
